A study of Mus musculus with 16 samples.

Results

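The mRNA levels of 10 genes of mitochondrial long-chain and medium-chain fatty acid oxidation were followed in inguinal white adipose tissue (iWAT), the subcutaneous fat pad of the mouse groin. They were named as a list (Ppara, Cpt1a, Cpt1b, Cpt2, Slc25a20, Acadm, Acadl, Acadvl, Hadha and Hadhb) and found by symbol and Ensembl identifier. The list made up 10 of the 55487 genes in the count table, and 10 of 10 were among the 16549 genes with enough counts to be tested. The tissue came from male mice aged 6 to 7 months in a factorial design of genotype and diet with 4 libraries in each of 4 groups, 16 in all. The groups were Kmo knockout (KO) mice on high-fat diet (HFD), wild-type (WT) littermates on HFD, KO mice on chow and WT littermates on chow. The knockout was whole-body, so it was not limited to a cell type of the pad. Kmo encodes kynurenine 3-monooxygenase, an enzyme of tryptophan breakdown. RNA was poly-A selected and read in pairs, and the values were the submitters' gene counts.

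Long-chain fatty acids enter mitochondria as carnitine esters. Carnitine palmitoyltransferase 1 (CPT1) on the outer membrane makes the ester, the carrier encoded by Slc25a20 moves it across the inner membrane, and carnitine palmitoyltransferase 2 returns the acyl-CoA to the matrix. Acyl-CoA dehydrogenases of overlapping chain-length preference then take the first step of each turn of the spiral. The trifunctional protein of Hadha and Hadhb carries out the remaining steps for long chains. Malonyl-CoA, the product of the acetyl-CoA carboxylases, inhibits CPT1, and PPARα is a nuclear receptor that activates many genes of the pathway in liver, muscle and brown fat. CPT1B is the muscle and brown-fat form of the enzyme and CPT1A the liver form, which white adipocytes also express.

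HFD was accompanied by opposite changes of the receptor gene Ppara and of Cpt1a in both genotypes. Over both genotypes Ppara mRNA on HFD was 0.340 times its level on chow, and Cpt1a mRNA was 2.10 times its level on chow. Cpt1b, the other CPT1 gene of the list, went opposite to Cpt1a. It was 0.371 times its level on chow and passed the test over both genotypes only, with 2 to 9 counts per HFD library and 5 to 30 per chow library. The genes of the acyl-CoA dehydrogenases and the trifunctional protein had smaller fold changes. Of these, Hadhb and Acadvl, both lower on HFD, passed the test over both genotypes. No gene of the 10 passed the test between KO and WT on either diet. An HFD-minus-chow change was called for 3 of 10 in KO (1 higher, 2 lower), where 12.5% of all tested genes were called (7.28% higher, 5.23% lower). It was called for 2 of 10 in WT (1 higher, 1 lower), where 11.8% were called (6.9% higher, 4.92% lower), and for 5 of 10 over both genotypes (1 higher, 4 lower), where 33.1% were called (17.1% higher, 16% lower). The comparison over both genotypes averages the other two and shares all their libraries. Each total, higher and lower calls together, is at most 2 genes above what the background share of all calls gives in a list of 10. By direction, the 4 of 10 lower over both genotypes stand against 16% of all genes. A call here is a Benjamini-Hochberg adjusted p under 0.05 in edgeR's quasi-likelihood test over the 16549 genes.

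**Figure D1:**
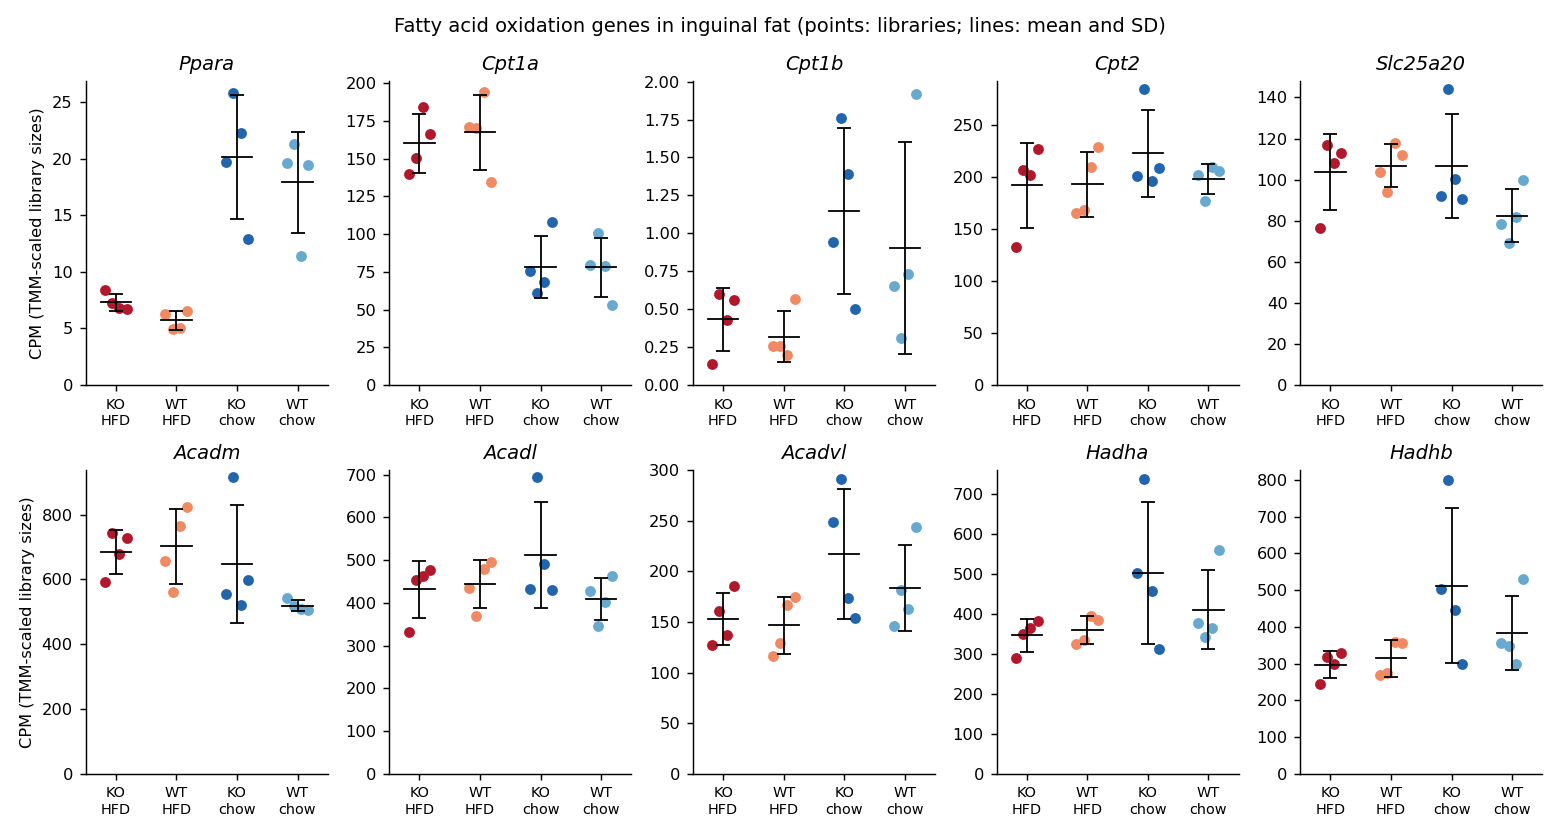
Counts of the 10 genes in each library, scaled to library size (CPM, with TMM factors), with each group's mean and SD (n = 4). Ppara lies lower and Cpt1a higher in all 8 HFD libraries than in any of the 8 chow libraries, and KO chow replicate 2 is the highest of the 16 libraries for 8 of the 10 genes (all but Cpt1a and Cpt1b).

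Libraries held 13824404 to 16909361 counts. Kmo had 1 to 8 counts in the KO libraries and 40 to 298 in the WT libraries, in the direction of the genotype labels. White adipocyte markers were high in all libraries (10 of 10 tested, mean log2 CPM 11.03 to 11.87). The 16 libraries differed in markers of other cell types, also within groups: the mean log2 CPM of T and B cell markers ran from -0.92 to 5.69 and exceeded 4 in 6 libraries (1 KO HFD, 1 WT HFD, 2 KO chow and 2 WT chow), and that of skeletal muscle markers ran from -0.01 to 5.67. Several of these marker lists also leaned with the groups. Over both genotypes, T cell markers were below 0 on the log2 HFD-minus-chow scale in 9 of 9 (median -2.18, 0 called) and B cell markers in 8 of 8 (median -1.01, 0 called). On the same scale macrophage markers were above 0 in 8 of 8 (median 0.47, 2 called) and fibroblast and progenitor markers in 7 of 7 (median 0.48, 2 called). Endothelial markers were above 0 in 5 of 7 (median 0.35, 3 called), white adipocyte markers in 9 of 10 (median 0.16, 2 called higher and 1 lower) and erythrocyte markers in 0 of 4 (median -0.31, 0 called). Muscle markers were below 0 in 12 of 13 for HFD minus chow (median -0.74) and in 12 of 13 for KO minus WT over both diets (median -1.81), with 0 called in either; the mean of the muscle score over libraries, by contrast, was above the chow mean of 2.61 on HFD, within the spread between libraries. Thermogenic (brown or beige) adipocyte markers are given further on, and the part of the other lists in the diet changes of the 10 genes was not tested beyond the lymphoid and muscle scores used as covariates. In such bulk tissue, fewer cells of a type and less RNA per cell cannot be told apart. Each library carries its own code in the sample descriptions, taken here as that of a separate animal. The p-values rest on the spread between separate samples within groups. That spread was estimated for each gene in 1 fit over all 4 groups, so it is not that of the 2 compared groups alone.

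Ppara, at chr15:85734983-85802819 on the plus strand (GRCm38), encodes PPARα, the receptor of the list. Its level was 8.43, 7.28, 6.82 and 6.70 CPM in the KO HFD libraries, against 19.8, 25.8, 22.3 and 12.9 CPM in the KO chow libraries. In WT mice it was 6.29, 4.98, 5.05 and 6.55 CPM on HFD, against 19.6, 21.3, 11.4 and 19.5 CPM on chow. Every HFD library lay below every chow library, and the single low chow library of each genotype (KO chow replicate 4 and WT chow replicate 3) was still above the highest HFD value. The log2 fold change was -1.47 in KO (SE 0.22, edgeR adjusted p = 0.00218) and -1.65 in WT (SE 0.22, adjusted p = 0.00144). The change in KO minus that in WT was 0.18 with a 95% confidence interval of -0.46 to 0.83. Among all genes, 8.47% in KO, 7.43% in WT and 2.53% over both genotypes were lower on HFD without overlap of the groups.

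The carnitine shuttle comprises Cpt1a, Cpt1b, Slc25a20 and Cpt2. Cpt1a, at chr19:3322334-3385733 on the plus strand, stood at 140, 150, 184 and 166 CPM in KO HFD, against 75.5, 61.0, 68.4 and 108 CPM in KO chow. In WT mice it stood at 171, 170, 194 and 134 CPM on HFD, against 79.5, 101, 79.0 and 52.7 CPM on chow. Groups of either genotype did not overlap, and neither did the 8 HFD and 8 chow libraries together; of all genes 10.2% in KO, 10% in WT and 4.33% over both genotypes were higher on HFD without overlap. The log2 fold change was 1.03 in KO (SE 0.20, adjusted p = 0.00644) and 1.10 in WT (SE 0.20, adjusted p = 0.00475). Because Ppara and Cpt1a went in opposite directions, the ratio of Cpt1a to Ppara counts within a library separated the diets widely: it ran from 16.6 to 38.5 in HFD libraries and from 2.36 to 8.38 in chow libraries. This ratio does not depend on library scaling, and it was chosen after its parts had been seen.

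The Cpt1a promoter window of RefSeq (GRCm38.p6, 250 bases before the start to 50 after it) held 1 copy of AGGTCA, the core motif that nuclear receptors such as PPARα bind, on the minus strand. It is shown because Cpt1a was the gene of the list that rose, and its capitals mark the motif as read on the plus strand. The stretch lies at chr19:3323051-3323284, outside the gene's annotated exons but inside its Ensembl span, since longer transcripts start upstream.
upstream of Cpt1a: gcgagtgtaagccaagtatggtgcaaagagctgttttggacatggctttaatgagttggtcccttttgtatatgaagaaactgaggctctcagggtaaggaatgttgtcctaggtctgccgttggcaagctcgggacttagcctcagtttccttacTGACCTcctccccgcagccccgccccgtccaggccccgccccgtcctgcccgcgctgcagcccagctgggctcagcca
The same motif, searched on both strands, was found in the windows of Cpt1a, Acadm and Acadvl, 3 of the 9 with a window (Cpt1b had none in the table), and in 16.3% of 32851 promoters. A pair of such motifs 1 base apart, the arrangement of PPAR response elements, was searched with up to 2 letters differing. It matched the window of Slc25a20 alone, from base 7 counted from the start, at chr9:108662142-108662154 on the plus strand, as AGGTgAaAGGTCg with the matching letters in capitals, and 3.86% of all promoters. No window held TCA directly before the core motif with up to 1 letter differing, an arrangement found in 7.46% of promoters. These matches describe letters and not binding, and a window without a match leaves the rest of the gene unread.

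Cpt1b, at chr15:89416405-89425863 on the minus strand, had very few counts: 2, 9, 7 and 8 in KO HFD, against 15, 26, 23 and 8 in KO chow, and 4, 4, 3 and 9 in WT HFD, against 10, 5, 11 and 30 in WT chow. That is 0.142 to 0.601 CPM in KO HFD against 0.500 to 1.76 CPM in KO chow, and 0.200 to 0.567 CPM in WT HFD against 0.310 to 1.92 CPM in WT chow, so the groups overlapped in both genotypes. The fold changes did not pass the test in KO (log2 -1.39, 95% interval -2.61 to -0.16, adjusted p = 0.122) or in WT (log2 -1.47, interval -2.74 to -0.21, adjusted p = 0.114). Over both genotypes Cpt1b was lower on HFD (log2 -1.43, SE 0.41, adjusted p = 0.0162). That call was lost in the 10 libraries with lymphoid marker scores under 4 (log2 -1.05, adjusted p = 0.115).

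The annotation limits what was counted for Cpt1b. Of its 3372 exon bases, 2744 (81.4%) are also exons of Gm44502, an annotated read-through gene on the same strand that joins Cpt1b to its neighbour Chkb. All 4296 exon bases of Gm44502 belong to another gene as well, and it received 0 counts in each of the 16 libraries. A read pair wholly on bases of both genes is assigned to neither by the counting used, so a Cpt1b count needs a read on its 628 unshared bases, most of them at the 5′ end. Per length, Cpt1b averaged 0.421 TPM (counts scaled by exon length and then by library) in KO HFD, 0.307 in WT HFD, 1.05 in KO chow and 0.857 in WT chow over its full exons. Over its 628 unshared bases alone, 5.37 times fewer, the means would be 2.26 TPM in KO HFD, 1.65 in WT HFD, 5.66 in KO chow and 4.60 in WT chow; this is an upper figure, since pairs can reach beyond them. The length cancels in a fold change of Cpt1b, but its level beside other genes is uncertain, and so is the ratio of Cpt1a to Cpt1b counts (237 to 990 on HFD, 27.5 to 325 on chow).

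**Figure D2:**
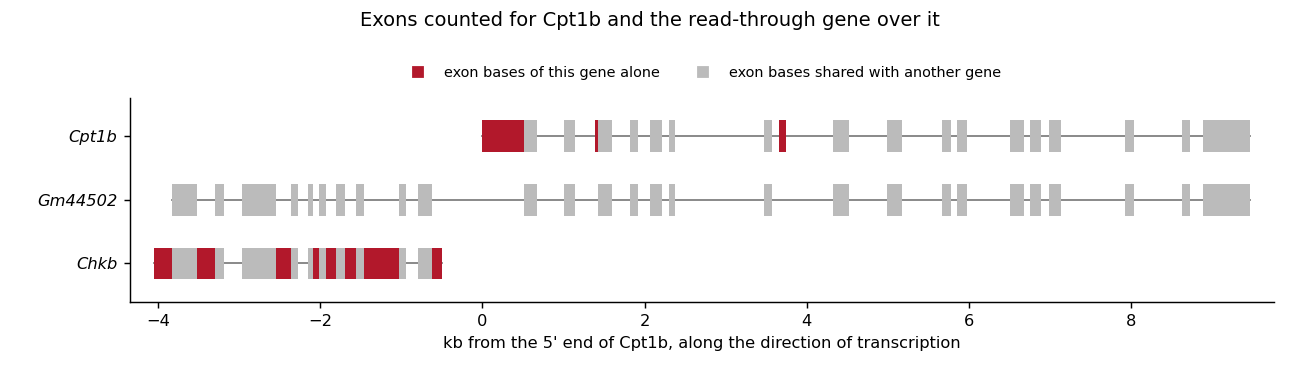
Exons of Cpt1b, the read-through gene Gm44502 and Chkb, by distance in kb from the 5′ end of Cpt1b along the direction of transcription. Red bases belong to 1 of the 3 genes alone and grey bases are shared, so 628 of the 3372 exon bases of Cpt1b and none of Gm44502 are red.

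Cpt1b is the muscle form, and muscle markers varied between the pads. The skeletal muscle list (13 of 15 tested) had group ranges of its mean log2 CPM of 0.64 to 3.43 in KO HFD, 1.24 to 4.83 in WT HFD, -0.01 to 4.41 in KO chow and 0.90 to 5.67 in WT chow, with Myh7 at 0 in the HFD groups. Cpt1b had 0.732 CPM in WT chow replicate 3, the library with the highest muscle score. It had 1.76 and 1.39 CPM in KO chow replicates 2 and 3, the 2 with the lowest. Over the 16 libraries, as deviations from group means, Cpt1b log2 CPM and the muscle score had a Pearson r of -0.66. A negative r was not particular to Cpt1b. The other genes of the list had r from -0.69 (Ppara) to -0.37 (Cpt2), except Cpt1a at 0.57. With the mean log2 CPM of the thermogenic markers, given further on, Cpt1b had an r of 0.77. The part of muscle in the level of Cpt1b was not tested beyond the muscle score used as a covariate. Cpt1c, the brain form of the enzyme, averaged 5.0 ± 0.98 CPM in KO HFD, 4.24 ± 0.53 in WT HFD, 5.86 ± 1.2 in KO chow and 5.07 ± 0.75 in WT chow (SD, n = 4 each), and its diet change over both genotypes did not pass the test (log2 -0.24, adjusted p = 0.187).

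The later steps of the shuttle did not pass the test on either diet contrast. Slc25a20, the carnitine-acylcarnitine carrier, had 76.5, 117, 108 and 113 CPM in KO HFD, against 91.9, 144, 100 and 90.5 CPM in KO chow. In WT mice it had 104, 93.9, 118 and 112 CPM on HFD, against 78.3, 69.3, 81.9 and 100 CPM on chow, where only WT chow replicate 4 reached into the HFD range. Its log2 fold change was -0.04 in KO (95% interval -0.39 to 0.31) and 0.38 in WT (interval 0.02 to 0.73, adjusted p = 0.144). Cpt2, whose product completes the shuttle, averaged 192 ± 41.0 CPM in KO HFD, 193 ± 31.3 in WT HFD, 223 ± 41.7 in KO chow and 199 ± 14.5 in WT chow (SD, n = 4 each). Its diet changes were -0.21 in KO and -0.04 in WT, with intervals reaching from -0.56 to 0.31.

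**Figure D3:**
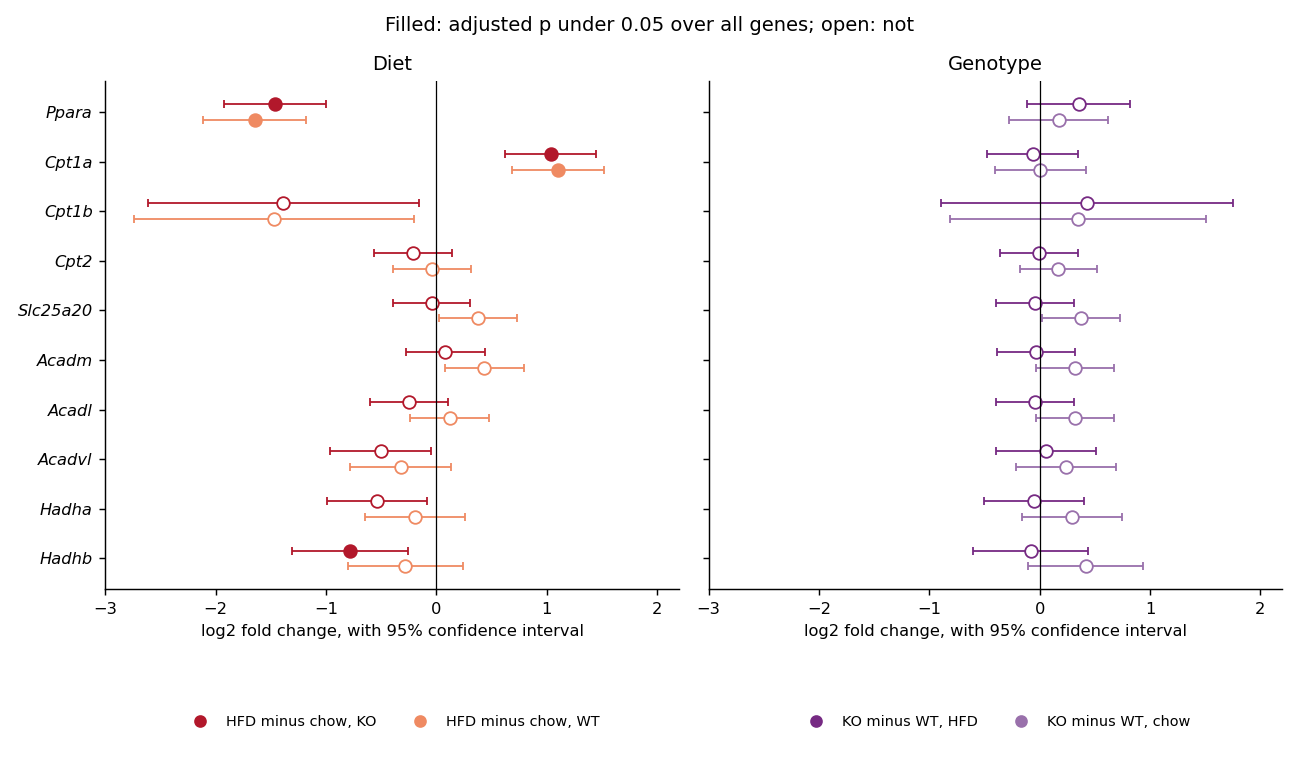
Log2 fold changes of the 10 genes with 95% confidence intervals, HFD minus chow in KO and WT (left) and KO minus WT on HFD and on chow (right); filled points have an adjusted p under 0.05. Only Ppara, Cpt1a and, in KO, Hadhb are filled, and none is filled for genotype.

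Among the acyl-CoA dehydrogenases, the genes of the medium-chain and very-long-chain enzymes had diet fold changes of opposite sign. Acadm, the medium-chain gene, had 591, 743, 678 and 728 CPM in KO HFD, against 556, 916, 520 and 599 CPM in KO chow, with KO chow replicate 2 above every HFD library. In WT mice it had 658, 561, 765 and 822 CPM on HFD, against 544, 517, 508 and 507 CPM on chow. These WT groups did not overlap, a pattern found upward in 10% of all genes. The log2 fold change was 0.08 in KO (adjusted p = 0.775), 0.44 in WT (adjusted p = 0.0987) and 0.26 over both genotypes (adjusted p = 0.106). One library decided the last of these: without KO chow replicate 2 Acadm was higher on HFD over both genotypes (log2 0.37, adjusted p = 0.00854). It then also passed in WT (log2 0.44, adjusted p = 0.0335), although that comparison does not hold the library left out. All groups share 1 fit, and which part of it moved the call was not tested.

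Acadvl, the very-long-chain gene, had 128, 161, 137 and 186 CPM in KO HFD, against 249, 292, 174 and 154 CPM in KO chow. In WT mice it had 116, 129, 167 and 175 CPM on HFD, against 146, 181, 163 and 244 CPM on chow. The groups overlapped in both genotypes, and the call was made over both genotypes only (log2 -0.42, SE 0.15, adjusted p = 0.0459). It stood at the threshold: leaving out any of 10 single libraries ended it, among them WT chow replicate 4 (log2 -0.33, adjusted p = 0.100) and KO chow replicate 2 (log2 -0.33, adjusted p = 0.101). Acadvl also shares 1151 of its 2686 exon bases (42.9%) with Dvl2, which runs on the opposite strand. Strand was not used in the counting, so read pairs wholly there go to neither gene and an Acadvl count needs a read on the other 1535 bases. Acadl, the long-chain gene, averaged 431 ± 66.5 CPM in KO HFD, 445 ± 56.5 in WT HFD, 512 ± 124 in KO chow and 409 ± 48.8 in WT chow (SD, n = 4 each), with diet changes of -0.25 in KO and 0.12 in WT that did not pass the test.

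Hadha and Hadhb encode the subunits of the trifunctional protein and lie head to head on chromosome 5. Hadha is at chr5:30118304-30155162 on the minus strand and Hadhb at chr5:30155248-30184593 on the plus strand, with 85 bases between them. The stretch is shown because its bases lie upstream of both starts and the libraries ranked much alike for the pair. It is given on the plus strand, with capitals marking GGGCGG (the GC box, a motif of Sp1-type factors), and it lies at chr5:30155163-30155247.
between Hadha and Hadhb: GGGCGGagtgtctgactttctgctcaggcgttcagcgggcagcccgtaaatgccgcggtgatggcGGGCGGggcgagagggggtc
Its GC content was 69.4%, against a median of 52.7% over the 300-base windows of all promoters. The GC box occurred in the windows of 7 of the 9 genes, those of Hadha and Hadhb sharing bases, and in 35.7% of all promoters.

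Hadhb had 245, 318, 298 and 328 CPM in KO HFD, against 503, 800, 446 and 298 CPM in KO chow. In WT mice it had 268, 274, 359 and 357 CPM on HFD, against 356, 348, 298 and 530 CPM on chow. On chow 1 KO library (replicate 4) and 3 WT libraries lay within the HFD range, so the groups overlapped. Hadhb was lower on HFD in KO (log2 -0.78, SE 0.25, adjusted p = 0.0494) and over both genotypes (log2 -0.53, SE 0.17, adjusted p = 0.0282), and not in WT (log2 -0.28, adjusted p = 0.463). The KO call was lost in 9 of 13 alternative analyses and in 13 of 16 fits that left out 1 library, all but those without KO chow replicate 4, WT chow replicate 3 or WT chow replicate 4. Without KO chow replicate 2 the KO change was -0.48 (adjusted p = 0.171). The call over both genotypes was lost in 4 of the 16, without KO chow replicate 2 (log2 -0.38, adjusted p = 0.0584), WT chow replicate 4 (log2 -0.43, adjusted p = 0.0630), WT HFD replicate 1 (log2 -0.49, adjusted p = 0.0566) or WT HFD replicate 2 (log2 -0.50, adjusted p = 0.0546). The difference between the genotypes' diet changes was itself not called (log2 -0.50, 95% interval -1.24 to 0.24).

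Hadha had 289, 350, 364 and 382 CPM in KO HFD, against 502, 738, 457 and 312 CPM in KO chow, and 325, 334, 395 and 384 CPM in WT HFD, against 377, 342, 365 and 559 CPM in WT chow. Its libraries ranked much as those of Hadhb did, with KO chow replicate 2 highest for both. Its diet change was -0.54 in KO (adjusted p = 0.108), -0.19 in WT (adjusted p = 0.577) and -0.36 over both genotypes (adjusted p = 0.0752). The ratio of Hadhb to Hadha counts stayed within 0.814 to 1.08 over the 16 libraries, with means of 0.859 ± 0.038 in KO HFD, 0.871 ± 0.057 in WT HFD, 1.0 ± 0.056 in KO chow and 0.931 ± 0.085 in WT chow (SD, n = 4 each). The ratio of Acadm to Hadhb counts, chosen after its parts had been seen, ran from 2.05 to 2.46 in HFD libraries and from 0.956 to 2.01 in chow libraries, without overlap.

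Thermogenic adipocyte markers moved with some of the 10 genes and opposite to Cpt1a. The list (Ucp1, Cidea, Cox7a1, Cox8b, Elovl3, Dio2, Ppargc1a, Prdm16, Fabp3 and Otop1) was tested for 10 of 10 genes, none at 0 in a whole group. Over both genotypes 6 of 10 were called lower on HFD, where 16% of all genes were, and the others were not called. The list's log2 fold changes ran from -6.13 to -0.09, with a median of -1.70. Ucp1, the uncoupling protein of brown and beige fat, averaged 0.985 ± 0.122 CPM in KO HFD and 1.54 ± 1.11 in WT HFD, against 105 ± 63.2 in KO chow and 71.6 ± 100.3 in WT chow (SD, n = 4 each). The list's mean log2 CPM ranged over 2.27 to 3.12 in KO HFD, 2.36 to 3.29 in WT HFD, 3.80 to 5.79 in KO chow and 3.73 to 5.35 in WT chow, so the diets did not overlap. The 4 libraries with the highest scores, 4.88 or more against at most 4.12 in the other 12, were 3 KO chow libraries and 1 WT chow library. The same 4 libraries were the highest 4 of 16 for Hadha, Hadhb and Cpt1b, and the lowest 4 of 16 for Cpt1a. For the other genes the match was partial: 3 of them were among the highest 4 for Ppara and for Acadvl, and 2 for Acadl. Only 1 was for each of Cpt2, Slc25a20 and Acadm, and 2 were among the lowest 4 for Acadm. Within KO chow the order of libraries by score was also their order by Hadha, by Hadhb and by Acadvl, and within WT chow it was their order by Hadhb. These were the 4 matches among the 40 pairs of a gene and a group, and 0 of the 20 pairs in HFD groups matched. The share of all tested genes with such matches was not counted, so they do not set these genes apart from others. The 4 libraries were all on chow, where Cpt1a was lower than in any HFD library, so its lowest 4 had to be chow libraries.

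With the score as a covariate, the fit called 0 of 10 genes in KO, 1 of 10 in WT and 0 of 10 over both genotypes. Ppara then changed by -1.05 in KO (adjusted p = 0.479) and -1.37 in WT (adjusted p = 0.0571), and Cpt1a by 0.46 in KO (adjusted p = 0.699) and 0.71 in WT (adjusted p = 0.152). Hadhb turned to 0.46 over both genotypes (adjusted p = 0.238), Acadvl to 0.29 and Cpt1b to 0.43. Slc25a20 was the 1 gene called in WT (log2 0.82, adjusted p = 0.0405). Since the score separates the diets, diet and thermogenic markers cannot be told apart in this fit, which left 33 of the 5471 calls over both genotypes.

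**Figure D4:**
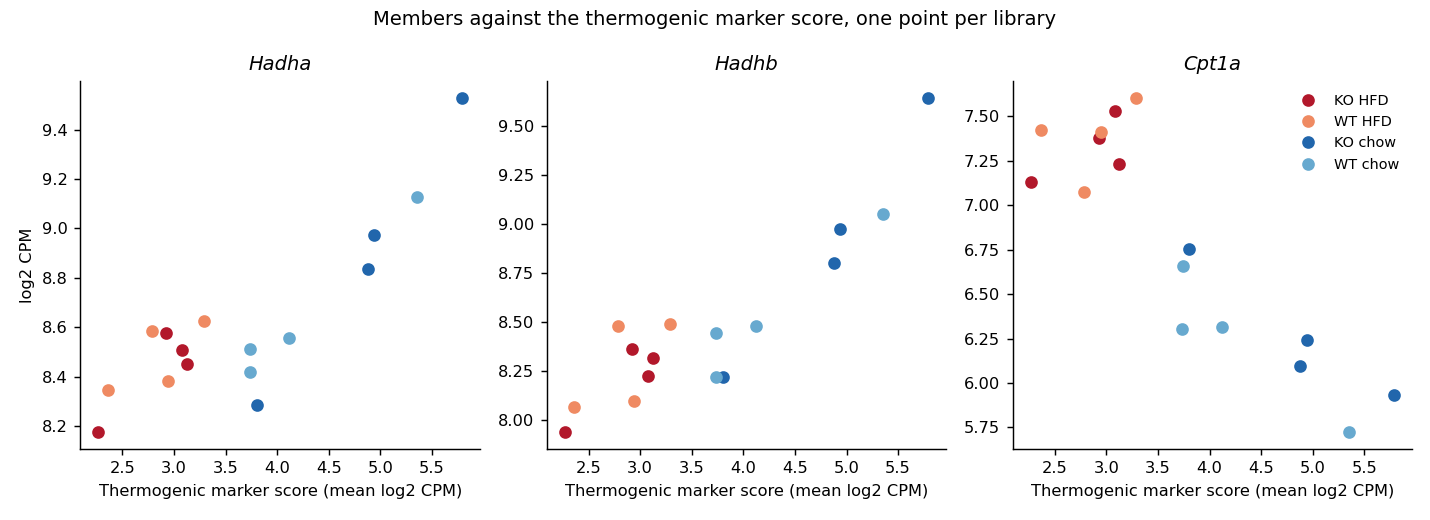
Log2 CPM of Hadha, Hadhb and Cpt1a against the mean log2 CPM of 10 thermogenic markers, 1 point per library. The 4 chow libraries with scores of 4.88 or more hold the 4 highest values of Hadha and Hadhb and the 4 lowest of Cpt1a, and the HFD libraries (scores up to 3.29) hold the highest of Cpt1a.

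Genotype made no call in the list: 0 of 10 genes passed the test between KO and WT on HFD, on chow, over both diets or in the genotype-by-diet interaction. Among all genes 0.00604% were called in each genotype comparison, which is 1 gene, and 0% in the interaction. At an unadjusted p under 0.05, 1 of the 10 passed on chow (Slc25a20), where 1% of all genes passed. On HFD, over both diets and in the interaction 0 of the 10 passed, where 1.14%, 0.997% and 1.13% of all genes did. DESeq2 and limma-voom also called 0 of 10 in each. On HFD the members' log2 fold changes lay between -0.08 and 0.43 with a median of -0.04, against 0.0020 for all genes, and 3 of 10 were above 0. This depended on the libraries. In those merged over lanes, 3 KO and 2 WT on HFD, 9 of 10 were above 0 (median 0.22). Without KO HFD replicate 1, the library from lane 4, 9 of 10 were (median 0.07). Without WT HFD replicate 3 it was 7 of 10, and without WT HFD replicate 1 it was 2 of 10. Ppara had the one pair of groups without overlap, 8.43, 7.28, 6.82 and 6.70 CPM in KO against 6.29, 4.98, 5.05 and 6.55 in WT (log2 0.35, SE 0.22, unadjusted p = 0.127, adjusted p = 1.0), a pattern found upward in 0.858% of all genes.

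On chow all 10 genes had higher fitted means in KO than in WT. Their log2 fold changes ran from 0.0042 (Cpt1a) to 0.42 (Hadhb), with a median of 0.31, against -0.0048 for all genes. Of all tested genes, 8042 of 16549 were above 0. In lists described further on, 14 of 14 other beta-oxidation enzymes were, 9 of 9 of activation and carnitine supply and 18 of 20 of the respiratory chain. Above 0 were also 7 of 12 peroxisomal genes, 6 of 8 PPAR targets, 5 of 10 PPARα partners and 4 of 8 of the malonyl-CoA list. Slc25a20 had 91.9, 144, 100 and 90.5 CPM in KO against 78.3, 69.3, 81.9 and 100 CPM in WT (log2 0.37, SE 0.17, unadjusted p = 0.0387, adjusted p = 1.0). The median of the 10 genes was 0.08 without KO chow replicate 2, with 10 of 10 still above 0. It was 0.18 with the muscle score as a covariate, and 0.50 in the libraries with a lymphoid score under 4. Muscle markers were lower in KO than in WT on chow for 10 of 13 genes by fitted mean, with a median of -1.68 and no call. With the thermogenic score as a covariate 7 of 10 were above 0, with a median of 0.03. The thermogenic list itself had 10 of 10 genes above 0 in KO chow, with a median of 0.48 and no call. The genotype intervals of 9 genes reached 0.35 to 0.52 log2 units to either side on each diet, and that of Cpt1b 1.16 on chow and 1.33 on HFD. A call needed more than an interval clear of 0, since Slc25a20 on chow had such an interval and no call. In simulated data with 50 changed genes per fold size, the fit recovered 14% of 1.5-fold and 54% of 2-fold changes on chow, and 16% and 64% on HFD. The genotype comparisons themselves called 1 gene each, so their adjusted cutoff differed from that in the simulated data. The size of change that these 10 genes needed for a call was not tested. In the authors' deposited tables of shrunken KO-over-WT estimates, the members' log2 fold changes were at most 8.43e-05 in size on chow and 5.66e-05 on HFD, with adjusted p of 1.0 throughout. Shrinkage draws estimates towards 0, so these sizes cannot be set against the unshrunken fold changes above. On chow 9 of the 10 shrunken estimates were positive, and that of Acadvl was negative.

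Per length, Acadl and Acadm were the most abundant transcripts of the list. Over the 16 libraries Acadl averaged 721 TPM, Acadm 526, Cpt2 272, Acadvl 209, Hadhb 183, Hadha 149, Slc25a20 66.5, Cpt1a 51.8, Ppara 10.7 and Cpt1b 0.660. The ranges of Acadm and Cpt2, of Hadha and Slc25a20, of Cpt1a and Ppara, and of Ppara and Cpt1b did not overlap, while those of the other neighbours did. The place of Cpt1a beside Slc25a20 differed between the diets: their ranges overlapped in KO HFD and in WT HFD, but on chow Cpt1a lay below Slc25a20 without overlap in either genotype (32.6 ± 10.5 against 68.6 ± 10.7 TPM in KO chow and 32.6 ± 8.61 against 54.3 ± 8.93 TPM in WT chow, SD, n = 4 each). Over its unshared bases alone Acadvl would average 366 TPM, above Cpt2, so its place in the order is also uncertain.

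The other genes of the pathway were read from lists around these 10. Of 14 further enzymes of mitochondrial beta-oxidation, 1 was higher and 2 were lower on HFD over both genotypes, where 17.1% of all genes were higher and 16% lower, which is also the background of the lists that follow. The list had a median log2 fold change of -0.02, against -0.25 for the 10 genes and -0.04 for all genes. Acad9, an acyl-CoA dehydrogenase that is also an assembly factor of complex I, averaged 74.4 CPM in KO HFD and 78.0 in WT HFD, against 52.0 in KO chow and 51.0 in WT chow (log2 0.57, adjusted p = 0.000454). Acaa2, the thiolase of the last step, was lower (log2 -0.51, adjusted p = 0.0126), as was the enoyl-CoA hydratase gene Echs1 (log2 -0.30, adjusted p = 0.0496).

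Of 9 tested genes (10 listed) for fatty acid activation and carnitine supply, 0 were higher and 3 lower: Acot2, a matrix thioesterase (log2 -0.57, adjusted p = 0.00393), Crat, carnitine acetyltransferase (log2 -0.32, adjusted p = 0.0173), and Acsl3, a long-chain acyl-CoA synthetase (log2 -0.65, adjusted p = 0.0496). The list's median was -0.24. A further list held genes that set malonyl-CoA, the inhibitor of CPT1. Acaca, the cytosolic acetyl-CoA carboxylase, averaged 279 CPM in KO HFD and 243 in WT HFD, against 1471 in KO chow and 1517 in WT chow (log2 -2.52 over both genotypes, SE 0.24, adjusted p = 2.19e-05). Acacb, the form at the mitochondrial outer membrane, averaged 125 CPM in KO HFD and 108 in WT HFD, against 595 in KO chow and 467 in WT chow (log2 -2.19, SE 0.33, adjusted p = 0.000398). With Prkab1, a subunit of AMP-activated kinase (log2 -0.29, adjusted p = 0.0165), 3 of 8 genes of this list were lower and 0 higher, with a median of -0.22.

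Of 10 partners and coactivators of PPARα, 2 were higher and 3 lower over both genotypes (median -0.20). Ppargc1b, which encodes the coactivator PGC-1β, was lower (log2 -0.78, adjusted p = 0.00059), as were Ppargc1a, for PGC-1α (log2 -0.50, adjusted p = 0.0137), and Pparg, the adipocyte receptor of the family (log2 -0.35, adjusted p = 0.0302). Nrip1, a corepressor, was higher (log2 0.35, adjusted p = 0.0169). Of 8 tested PPAR target genes outside the pathway (10 listed), 1 was higher and 2 lower (median -0.05). Angptl4, an inhibitor of lipoprotein lipase, averaged 783 CPM in KO HFD and 847 in WT HFD, against 302 in KO chow and 286 in WT chow (log2 1.47, adjusted p = 0.000589). Fabp3, a fatty acid binding protein of muscle and brown fat that the thermogenic list also holds, averaged 0.624 CPM in KO HFD and 1.16 in WT HFD, against 15.5 in KO chow and 9.65 in WT chow (log2 -3.83, adjusted p = 0.000463). Ucp3 was lower over both genotypes (log2 -0.35, adjusted p = 0.0319), and Pdk4 in KO (log2 -1.12, adjusted p = 0.0448) but not over both (log2 -0.59, adjusted p = 0.0703).

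Peroxisomal oxidation, the route for very long chains, had 4 of 12 genes higher and 1 lower (17.1% and 16% of all genes), with a median of 0.03. The higher genes included the thiolase Acaa1b (log2 1.13, adjusted p = 4.56e-05), its paralogue Acaa1a (log2 0.32, adjusted p = 0.00818) and the bifunctional enzyme Hsd17b4 (log2 0.67, adjusted p = 0.000244). Acaa1a and Acaa1b are close copies, so reads could be split between them with some uncertainty. Acox2, a branched-chain oxidase, was the lower one, with a summed count of 1 in KO HFD and 5 in WT HFD, against 53 in KO chow and 67 in WT chow. Of 20 nuclear genes of the respiratory chain, 0 were higher and 10 lower over both genotypes (16% of all genes were lower), with a median of -0.30. Cox6c (log2 -0.69, adjusted p = 0.00175), Cox5a (log2 -0.49, adjusted p = 0.0103), Cox5b (log2 -0.46, adjusted p = 0.00918) and Atp5c1 (log2 -0.32, adjusted p = 0.00989) were among them. The thermogenic score differed between the diets in the same libraries, and its part in these lists was not tested.

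**Figure D5:**
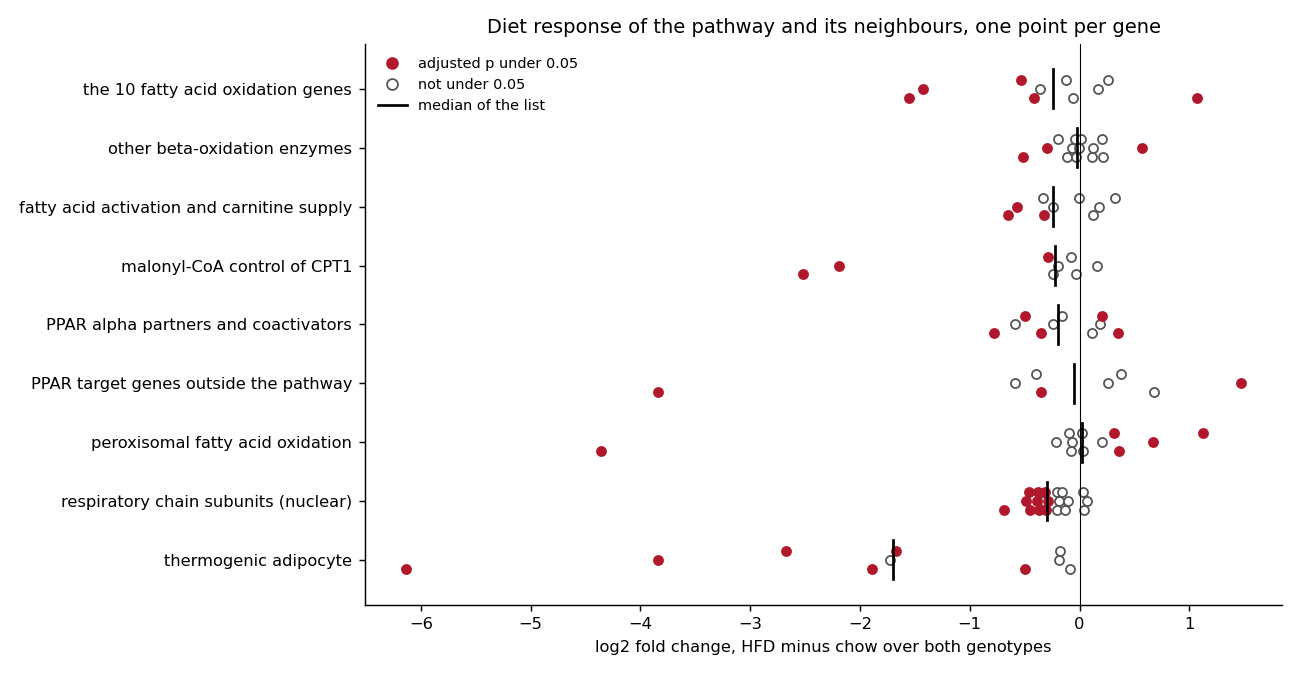
Log2 fold change of HFD minus chow over both genotypes for the 10 genes, 7 lists around the pathway and the thermogenic markers, 1 point per gene, with list medians as black lines. The acetyl-CoA carboxylases Acaca and Acacb (-2.52 and -2.19) and Ppara and Cpt1b (-1.56 and -1.43) lie to the left, and Cpt1a (1.07) and Angptl4 (1.47) to the right.

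Across the 16 libraries the genes whose log2 CPM followed Ppara most closely were Fam13a (Pearson r = 0.96), A830008E24Rik (0.96), Ntrk3 (0.95), Gpd2 (0.95) and Kxd1 (0.95). Among those closest to Cpt1b were Tmem143 (0.92), Mmaa (0.92), Xrcc6 (0.92) and Impa2 (0.91). Those closest to the mean standardised level of the other 8 genes were Sucla2 (0.93), Gfm1 (0.91), Atp5a1 (0.90), Vwa8 (0.90) and Foxred1 (0.89). These are descriptions of the same 16 libraries, which share diet, depth and cell makeup.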

How the data were processed

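Poly-A RNA of 16 iWAT libraries was counted per gene by the authors with featureCounts 2.0.3 on Ensembl release 102, without regard to strand, per the file headers, after alignment with STAR 2.7.3a to GRCm38.p6, per the submitters' processing notes. The library kit is described as stranded in the labels' protocols. The deposited counts are whole read pairs per gene, not normalized. The authors' deposited tables for KO against WT hold shrunken log2 fold changes and p-values, per the file headers. A deposited table of normalized counts with 16 per-sample columns was not used. Exon lengths came from the deposited annotation columns. The 10 genes and all lists were chosen with earlier results of these data known.

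Genes were kept by edgeR's filterByExpr (16549 of 55487), scaled by TMM and fitted with edgeR 4.0.16 (glmQLFit and glmQLFTest, R 4.3.3) in 1 model of 4 groups and all 16 libraries, without covariates, because the labels name no batch. A call needs an adjusted p under 0.05 over all genes tested. The SE is the size of the log2 fold change divided by the root of its F statistic. Log2 CPM used a prior count of 2, and TPM were computed from counts and exon lengths. Marker scores are means of log2 CPM. Alternatives were RLE and upper-quartile scaling, DESeq2 1.42.0, limma-voom (limma 3.58.1), no low-count filter, a floor of 1 CPM reached by at least 4 libraries, the replicate block, only the libraries compared, lymphoid, muscle or thermogenic scores as covariates, libraries merged over lanes only (12), libraries with a lymphoid score under 4 (10), and leaving out each library. On simulated data with 16549 genes and 50 genes per fold size, the fit for KO against WT on chow recovered 54% of 2-fold and 14% of 1.5-fold changes.

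From the pathway lists the text names up to 4 genes, those called in a diet comparison by smallest adjusted p, and always Cpt1c and Kmo. Likeness is Pearson's r of log2 CPM over 16 libraries. For Cpt1b, 1 gene of this ranking is not reported here. Column names of the counts show lanes: 12 libraries were merged over lanes, 3 came from lane 6 and 1 from lane 4. Promoter windows are RefSeq's (GRCm38.p6), matched for 9 of the 10 genes.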

Additional observations from a re-analysis of the deposited data

Results flagged for a closer look

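In the 40 sets of 4 libraries formed by the 10 genes and 4 groups, 3 held a library that stood apart from the other 3 by more than the 95% critical value of Dixon's gap ratio. Chance flags about 1 in 20 such groups. Ppara was low in WT chow replicate 3, at 11.4 CPM against 19.5 to 21.3 CPM in the other WT chow libraries. Cpt2 was high in KO chow replicate 2, at 285 CPM against 197 to 209 CPM in the other KO chow libraries. Acadl was low in KO HFD replicate 1, at 333 CPM against 453 to 476 CPM in the other KO HFD libraries. WT chow replicate 3 also had the highest muscle marker score (5.67) and the lowest thermogenic score of its group (3.73), KO chow replicate 2 the highest thermogenic score of all libraries (5.79), and KO HFD replicate 1 the highest lymphoid score of its group (4.83) and the lowest thermogenic score of all libraries (2.27). KO HFD replicate 1 was also the 1 library from lane 4. The part of these marker levels in the 3 values was not tested.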

How the results depend on the processing

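The calls of Ppara and Cpt1a on diet held in KO, in WT and over both genotypes under every alternative listed above, single libraries left out included, except the thermogenic covariate. The call of Hadhb in KO was lost in 9 of 13 alternatives and those of Acadvl and Hadhb over both genotypes in 7 and 6. Over both genotypes 5 of the 10 genes were called as reported, 3 without a filter on low counts, with the lymphoid score as a covariate and in the 12 libraries merged over lanes, 2 in the libraries with a lymphoid score under 4, and 0 with the thermogenic covariate. Leaving out single libraries gave 3 to 6 (3 without WT chow replicate 4, WT HFD replicate 1 or WT HFD replicate 2). With the thermogenic covariate 0 were called in KO and 1 in WT. Leaving out single libraries gave 2 to 4 in KO and 2 to 3 in WT, and 0 in every genotype comparison and the interaction. Hadha over both genotypes passed with upper-quartile scaling (log2 -0.43, adjusted p = 0.0435) and DESeq2 (log2 -0.37, adjusted p = 0.0465).

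Replicate numbers in the labels are shared between groups, but a sample sheet of the authors numbers the animals otherwise, and same-numbered libraries deviated together in some pairs and apart in others (r from -0.69 to 0.55), so they do not pair the samples. With the replicate block, 3 genes were called over both genotypes and 2 in each genotype, and in no comparison did all 4 libraries correlate best with their own number, while the interaction of Cpt1b turned to -0.089. All-gene calls in the block fit were 1126 in KO and 1050 in WT, against 2071 and 1957 without it.

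All-gene counts also moved by over 1.5 times elsewhere. In KO they were 1284 without a filter, 768 at lymphoid scores under 4 and 4 with the thermogenic covariate. In WT they were 1245 without a filter, 1140 from the compared libraries alone, 225 in merged libraries, 625 at lymphoid scores under 4 and 41 with the thermogenic covariate. Leaving out single libraries gave 745 to 2714 in KO (fewest without KO HFD replicate 2, KO chow replicate 3, KO HFD replicate 3, KO chow replicate 2 or KO HFD replicate 4) and 689 to 2400 in WT (fewest without WT HFD replicate 3, WT chow replicate 4, WT chow replicate 1 or WT HFD replicate 2). Over both genotypes they were 3544 at lymphoid scores under 4 and 33 with the thermogenic covariate. Upper-quartile scaling shifted the median gene by -0.062 in KO and -0.054 in WT. It turned the split of higher and lower calls to 919 and 1113 in KO (1205 and 866 as reported), 902 and 1031 in WT (1142 and 815), and 2309 and 3298 over both (2827 and 2644).

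The other sign changes were in fold changes that had no call, apart from those of Cpt1b, Acadvl and Hadhb on diet. With the thermogenic covariate, HFD minus chow in KO was 0.68 for Cpt1b, 0.21 for Cpt2, 0.59 for Slc25a20, 0.31 for Acadl, 0.34 for Acadvl, 0.50 for Hadha and 0.40 for Hadhb. In WT it was 0.18 for Cpt1b, 0.25 for Cpt2, 0.25 for Acadvl, 0.51 for Hadha and 0.51 for Hadhb, and over both genotypes 0.43 for Cpt1b, 0.23 for Cpt2, 0.41 for Acadl, 0.29 for Acadvl, 0.50 for Hadha and 0.46 for Hadhb. KO minus WT was then -0.18 for Cpt1b, -0.029 for Acadvl and -0.046 for Hadha on chow, and 0.064 for Cpt1a, -0.054 for Hadha and -0.031 for Hadhb over both diets, and the interaction of Acadvl was 0.090. In merged libraries, KO minus WT on HFD was 0.34 for Cpt2, 0.18 for Slc25a20, 0.23 for Acadm, 0.20 for Acadl, 0.14 for Hadha and 0.21 for Hadhb. The same setting gave 0.085 for Slc25a20 on diet in KO, -0.087 for Acadl on diet in WT, 0.057 for Cpt1a over both diets, and interactions of 0.22 for Cpt2 and 0.15 for Acadvl. At lymphoid scores under 4, diet in KO was -0.082 for Acadm, KO minus WT on HFD was 0.0039 for Cpt1a, 0.076 for Cpt2 and 0.020 for Slc25a20, Cpt1a was 0.043 over both diets, and the interactions were -0.090 for Ppara and -0.069 for Cpt1b. The muscle covariate gave 0.072 for Cpt1a and -0.070 for Acadvl on HFD, 0.069 for Cpt1a and -0.0059 for Hadha over both diets, and 0.0051 for the interaction of Cpt1a. The lymphoid covariate gave -0.016 for Acadm on diet in KO and -0.014 for Cpt1a between genotypes on chow, and limma-voom -0.12 for the interaction of Cpt1b. The cause was not tested.

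Leaving out single libraries, KO minus WT on HFD ran from -0.16 to 0.015 for Cpt1a, -0.10 to 0.13 for Cpt2, -0.11 to 0.076 for Slc25a20, -0.13 to 0.050 for Acadm, -0.12 to 0.062 for Acadl, -0.053 to 0.15 for Acadvl, -0.11 to 0.024 for Hadha and -0.16 to 0.0021 for Hadhb. On chow Cpt1a ran from -0.19 to 0.15, and over both diets Cpt1a from -0.13 to 0.044 and Hadha from -0.0083 to 0.21. HFD minus chow ran from -0.11 to 0.14 for Slc25a20 and -0.012 to 0.30 for Acadm in KO, -0.13 to 0.036 for Cpt2 in WT, and -0.099 to 0.031 for Acadl over both genotypes. The interaction ran from -0.22 to 0.13 for Cpt1a and -0.59 to 0.51 for Cpt1b. Cpt1b had 2 to 30 counts per library, which limits its precision.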
